A study of Mus musculus with 2 samples.

Results

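The genes described here are 8 members of the cell's defence against foreign and misplaced nucleic acid: the cytosolic sensors Ifih1, Dhx58, Eif2ak2 and Zbp1, the signalling proteins Mavs and Tbk1, and Ifnar1 and Ifnar2, the chains of the receptor for type I interferons. They were picked by name, with earlier results of these data known, and all 8 were found among the 32285 genes of the deposited tables, each under 1 identifier. Cgas, the sensor of cytosolic DNA, and its partner Sting, listed under its older symbol Tmem173, were looked up beside them. The cells came from the RPE, choroid and sclera of C57BL/6J mice of 3 months, 7 days after an injection under the retina of 1 µl PBS (control) or of doxorubicin (Dox) at 100 ng/µl, a drug that damages DNA. Each group was 1 library, pooled from 10 eyes of 5 mice, so neither has a replicate, no test between the groups could be made, and drug, injection and library cannot be told apart. The study notes that the injected drug reaches only a portion of the RPE.

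Ifih1 encodes MDA5, which binds long double-stranded RNA in the cytosol. It signals through Mavs, an adaptor on the mitochondrial surface, to the kinase Tbk1, which turns on Irf3 and the transcription of interferon genes. Dhx58 encodes LGP2, a relative of MDA5 that binds RNA, lacks the domain that reaches Mavs, and tunes the response. Eif2ak2 encodes PKR, a kinase that halts translation when it meets double-stranded RNA, and Zbp1 binds nucleic acid in the Z form and can start cell death through Ripk3. Secreted type I interferon is bound by Ifnar1 and Ifnar2, which activate Jak1 and Tyk2 and, through them, Stat2 and Irf9, and many of these sensors are themselves interferon-induced genes. The RPE is the pigmented layer behind the photoreceptors, which it supports by recycling retinoids.

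Factors of the IRF family, and complexes that hold Stat2 and Irf9, bind elements with a repeated GAAA core. The pattern GAAA, then any 2 bases (NN), then GAAA was searched on both strands in the RefSeq promoters (GRCm38.p6), each running from 250 bases before the start site to 50 after it. Of the members, 6 had a promoter in that table, all but Dhx58 and Zbp1, and 2 of the 6 held the pattern. The matches, held by Ifih1 and Eif2ak2, are shown with the matching bases in capitals and each gene's own strand written 5′ to 3′. The Ifih1 stretch is chr2:62646206-62646235, minus strand, with the pattern at bases 33 to 42 counted from the start site as 1, and the Eif2ak2 stretch is chr17:78882535-78882564, minus strand, with the pattern at bases 19 to 28.
Ifih1: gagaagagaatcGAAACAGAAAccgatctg
Eif2ak2: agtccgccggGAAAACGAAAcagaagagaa

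The pattern was present in 3.99% of the genes of the promoter table (1079 of 27025) and in 15 of 29 interferon-induced genes with a promoter there. These letters were not found in the windows of Mavs, Tbk1, Ifnar1 and Ifnar2. A match is a description of the sequence, not a shown binding site. Genes with the pattern included some that were higher in Dox RPE cells, such as Gbp3 and Ifit3, and some that were lower, such as Cxcl10 and Ppp1r15a. A link between the pattern and the ratios was not tested.

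After filtering, 20180 control cells with 115611226 unique molecular identifiers (UMIs, each marking 1 captured RNA molecule) and 15426 Dox cells with 99273166 UMIs were kept. Cells with at least 10 UMIs of Rpe65, the retinoid isomerase of the RPE, were set apart as RPE cells. There were 1526 of them in control, holding 26313869 UMIs, and 1630 in Dox, holding 31201113. Among the other RPE markers, Rlbp1, Rdh5, Rgr, Ttr, Lrat, Slc16a8, Ptgds and Otx2 were far higher in these cells than outside them, whereas Best1 was near 0, at 0.532 and 0.673 UMIs per 1000000 UMIs of the group (CPM). The limit is not sharp: of the cells with 10 to 14 Rpe65 UMIs, 32.3% of 133 in control and 26.6% of 173 in Dox fell into the RPE-like cluster of all cells, against 6.62% of 529 and 4.06% of 813 with 5 to 9. Of all RPE cells 84.8% in control and 84.5% in Dox lay in that cluster. The libraries shared 427 barcodes among kept cells, 3 of them among RPE cells.

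The remaining cells were grouped by clustering and named from marker genes. Most were fibroblast-like, in a large cluster led by Myoc, Chad, Cyp26a1 and Tnmd and a small one led by Sfrp4, Dpt, Clec3b and Ly6c1. Melanocyte-like cells were led by Hbb-bs, Hhatl, Pmel and Cited1, the first a hemoglobin gene, and had only 1230 and 784.5 UMIs per cell in the median. Macrophage-like cells were led by Cd74, H2-Eb1 and H2-Aa, of antigen presentation, and the antibody gene Igkv4-91. There were also NK or T-like (Gzma, Nkg7, Ms4a4b, Cd3e), endothelial-like (Egfl7, Cldn5, Lrg1, Ptprb), smooth muscle-like (2210407C18Rik, Myh11, Map3k7cl, Olfr558) and Schwann-like cells (Gfra3, Kcna1, Gpr37l1). A cluster led by Cxcl10, Cxcl9, Ccl11 and Ifit1 and one led by Snhg7os, Gm26917, Gm10863 and Adgb had too few markers among their leading genes and stayed unnamed. The Snhg7os-led cells had only 1898 and 2025 UMIs per cell in the median. The counts of each group were summed and are given as CPM, with 95% intervals that cover counting error only, not the spread between mice or preparations.

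Among the sensors of double-stranded RNA, Ifih1, Dhx58 and Eif2ak2 stood higher in Dox RPE cells than in control RPE cells. Ifih1 (ENSMUSG00000026896, chromosome 2, positions 62595798 to 62646255, GENCODE vM21) was at 9.16 CPM in control (8.04 to 10.4, 241 UMIs) and at 14.4 CPM in Dox (13.1 to 15.8, 450 UMIs). The intervals of the levels do not overlap, and the log2 ratio of Dox over control was 0.66 (0.43 to 0.89). Eif2ak2 (ENSMUSG00000024079, chromosome 17, positions 78852564 to 78882573) was at 19.5 CPM in control (17.9 to 21.3, 514 UMIs) against 27.8 CPM in Dox (26.0 to 29.7, 867 UMIs). Its levels do not overlap either, although the log2 ratio of 0.51 (0.35 to 0.67) stays short of a 1.5-fold difference. Dhx58 (ENSMUSG00000017830, chromosome 11, positions 100694884 to 100704271) was scarce, with 21 UMIs at 0.798 CPM (0.494 to 1.22) in control and 51 UMIs at 1.63 CPM (1.22 to 2.15) in Dox. The log2 ratio was 1.03 (0.28 to 1.84), the largest among the members and the widest of the 3.

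The adaptor and the kinase downstream of Ifih1 were at nearly the same level in both libraries. Mavs (ENSMUSG00000037523, chromosome 2, positions 131234063 to 131248025) was at 12.9 CPM in control (11.6 to 14.4, 340 UMIs) against 12.5 CPM in Dox (11.3 to 13.8, 389 UMIs), giving a log2 ratio of -0.05 (-0.27 to 0.16). Tbk1 (ENSMUSG00000020115, chromosome 10, positions 121546455 to 121586787) was at 12.8 CPM in control (11.4 to 14.2, 336 UMIs) against 14.5 CPM in Dox (13.2 to 15.9, 451 UMIs), giving a log2 ratio of 0.18 (-0.03 to 0.39). For both, the interval of the ratio includes 0 and leaves out a 1.5-fold difference in either direction.

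The receptor chains were likewise close between the libraries in RPE cells. Ifnar1 (ENSMUSG00000022967, chromosome 16, positions 91485238 to 91507441) was at 9.73 CPM in control (8.57 to 10.996, 256 UMIs) against 11.2 CPM in Dox (10.1 to 12.5, 351 UMIs), giving a log2 ratio of 0.21 (-0.03 to 0.45). Ifnar2 (ENSMUSG00000022971, chromosome 16, positions 91372783 to 91405589), with the most UMIs of the members, was at 66.8 CPM in control (63.7 to 70.0, 1758 UMIs) against 70.4 CPM in Dox (67.5 to 73.5, 2198 UMIs), giving a log2 ratio of 0.08 (-0.01 to 0.17). Neither interval reaches a 1.5-fold difference. Both chains lie on chromosome 16, and for the receptor as for Mavs and Tbk1 the levels overlap between the libraries.

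Zbp1 had few UMIs in RPE cells, and fewer in Dox. Zbp1 (ENSMUSG00000027514, chromosome 2, positions 173206612 to 173218923) had 23 UMIs in control, at 0.874 CPM (0.554 to 1.31), and 15 in Dox, at 0.481 CPM (0.269 to 0.793), giving a log2 ratio of -0.86 (-1.91 to 0.14). Cgas had 15 UMIs in control and 7 in Dox, at 0.570 and 0.224 CPM, giving a log2 ratio of -1.35 (-2.88 to 0.04), and Tmem173 25 and 14, at 0.9501 and 0.449 CPM, giving a log2 ratio of -1.08 (-2.14 to -0.08). These 3 genes were each at under 1 CPM in the RPE cells of both libraries.

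Counted at a 1.5-fold difference among genes with at least 20 UMIs over both libraries, 2 of the 8 members were higher in Dox, Ifih1 and Dhx58, and 1 was lower, Zbp1. All 8 had enough UMIs to be counted. Over all 14215 genes counted the same way in RPE cells, 2.93% were higher and 7.44% lower. The median log2 ratio of the members was 0.19, beside -0.02 over all genes. When every RPE cell was thinned to 2000 UMIs, so that deep and shallow cells weigh the same, no member was counted in either direction. The 1494 control and 1589 Dox cells with that depth then held 28 and 40 UMIs of Ifih1, giving a log2 ratio of 0.43 (-0.31 to 1.18). Eif2ak2 had 73 and 85, giving a log2 ratio of 0.13 (-0.34 to 0.60), and Dhx58 had 1 and 6, with an interval that includes 0. At this depth a difference was not detectable for any member, and the wide intervals still include the values from all UMIs.

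**Figure D1:**
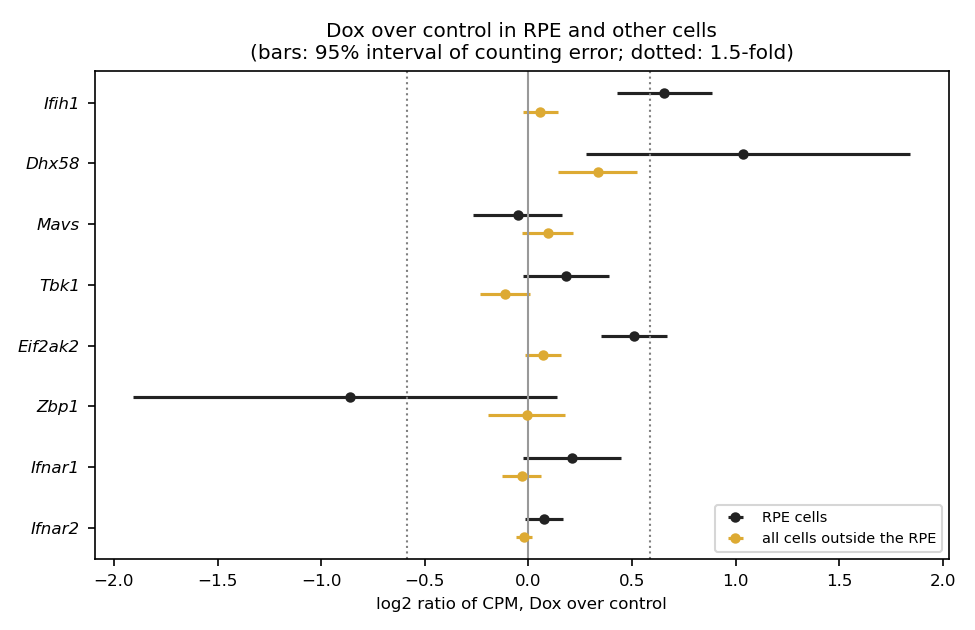
Log2 ratio of CPM, Dox over control, for the 8 members in RPE cells (black) and in all kept cells outside the RPE (yellow), with bars for the 95% interval of counting error and dotted lines at a 1.5-fold difference. Ifih1, Dhx58 and Eif2ak2 lie to the right of 0 in RPE cells, at 0.66, 1.03 and 0.51, while all 8 members lie between -0.11 and 0.33 outside the RPE.

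Outside the RPE, no member differed by 1.5-fold between the libraries over all other cells, where 3.3% of 16846 genes were higher and 6.1% lower. Ifih1 was at 28.6 CPM in control against 29.7 CPM in Dox, giving a log2 ratio of 0.06 (-0.03 to 0.14), and Eif2ak2 at 27.1 and 28.4 CPM, giving a log2 ratio of 0.07 (-0.02 to 0.16). For these genes the intervals of the ratios in RPE cells and outside do not overlap. Dhx58 was higher in Dox outside the RPE as well, at 5.23 CPM in control against 6.60 CPM in Dox, with a log2 ratio of 0.33 (0.14 to 0.52) that overlaps the ratio in RPE cells. Mavs was at 13.8 and 14.7 CPM, Tbk1 at 15.1 and 13.97, Zbp1 at 6.16 and 6.13, Ifnar1 at 24.1 and 23.6 and Ifnar2 at 144 and 141 CPM, in control and Dox. Thus the distance between RPE cells and the rest was smaller in the Dox library for Ifih1 and Eif2ak2, the latter reaching 27.8 CPM in Dox RPE cells beside 28.4 CPM outside.

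Immune cells were highest for several members, and RPE cells stood at or near the bottom of the order for most. In control, Ifih1 was highest in macrophage-like cells at 79.3 CPM (71.8 to 87.4), followed by the Snhg7os-led cells at 40.045 CPM and the Cxcl10-led cells at 38.8 CPM, whose intervals overlap each other but not that of the macrophage-like cells. The large fibroblast-like cluster followed at 25.3 CPM (24.1 to 26.6), and the endothelial-like, smooth muscle-like, melanocyte-like, Sfrp4-led fibroblast-like, NK or T-like and Schwann-like cells lay between 20.2 and 13.8 CPM, with each neighbour in the order overlapping the next. RPE cells came last in control, at 9.16 CPM. In Dox they came above the Sfrp4-led fibroblast-like cells (12.03 CPM, 6 UMIs) and the NK or T-like cells (9.40 CPM, 12 UMIs), with overlapping intervals. The Cxcl10-led cluster is partly defined by interferon-induced genes, so its level is no separate result. Under a finer clustering, control Ifih1 was at 49.9 CPM in a Gm26917-led cluster and 32.2 CPM in a Snhg7os-led one, both unnamed. The Cxcl10-led cells were at 38.3 CPM there.

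At the resolution of 0.1, Ifih1 was the only member whose ratio intervals lay on opposite sides of 0 in different cell types. A finer clustering had this for Tbk1 as well, at -0.25 (-0.47 to -0.04) in unnamed Coch-led and 1.49 (0.31 to 2.84, on 8 and 27 UMIs) in erythroid-like cells. With RPE cells still inside, the erythroid-like cluster had only 797.5 and 663.5 UMIs per cell in the median. Its Rpe65 level was then 2471 CPM, beside 1509 CPM in all other cells. The part of RPE RNA in its Tbk1 ratio was not tested. In macrophage-like cells Ifih1 was lower in Dox, at 59.2 CPM (50.9 to 68.6), giving a log2 ratio of -0.42 (-0.68 to -0.16). The finer clustering held 607 control and 310 Dox C1qb-led macrophage-like cells, and 350 and 259 Igkv4-91-led cells. Its clusters were taken whole, and how many cells they share with those at the resolution of 0.1 was not counted. The marker rule named the Igkv4-91-led cells neutrophil-like, by S100a9 and S100a8. Their leading genes also held Cd209a, Napsa and H2-DMb2, and the marker lists held no dendritic cells, so that name is not used here. Ifih1 was at 135 CPM in control against 100.06 CPM in Dox in the C1qb-led cells, with a log2 ratio of -0.43 (-0.74 to -0.14). In the Igkv4-91-led cells it was at 25.3 and 29.3 CPM, with a log2 ratio of 0.21 (-0.35 to 0.76). In the Myoc-led fibroblast-like cells it was at 27.4 CPM in Dox, giving a log2 ratio of 0.11 (0.01 to 0.22). Under the finer clustering the Ifih1 log2 ratio was 0.02 (-0.11 to 0.16) in a Coch-led cluster of 6978 control and 5195 Dox cells, which stayed unnamed. Ifih1 was at 0.22 (0.04 to 0.40) in a Myoc-led fibroblast-like cluster of 4228 and 3202 cells. In NK or T-like cells it was counted as lower, from 15.9 to 9.40 CPM, but on 32 and 12 UMIs, with a log2 ratio of -0.76 (-1.86 to 0.23), in a cluster where 10.6% of 9822 genes were counted as lower.

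Dhx58 was also highest in macrophage-like cells among the types with more than 6 UMIs. It was at 9.57 CPM in control (7.08 to 12.7, 49 UMIs) against 15.6 CPM in Dox (11.4 to 20.7, 47 UMIs) there, giving a log2 ratio of 0.70 (0.09 to 1.31), past 1.5-fold as were 5.05% of 11754 genes in these cells. In macrophage-like cells Dhx58 and Ifih1, both of the RIG-I-like family, thus differed between the libraries in opposite directions. Under the finer clustering Dhx58 had a log2 ratio of 1.47 (0.64 to 2.33) in the C1qb-led macrophage-like cells and of -0.18 (-1.17 to 0.77) in the Igkv4-91-led cells. The Cxcl10-led cells were at 6.37 and 8.72 CPM, the Myoc-led fibroblast-like cells at 5.40 and 6.57 CPM, giving a log2 ratio of 0.28 (0.06 to 0.51), and the RPE cells were below all types with more than 2 UMIs in either library, with an interval that overlaps that of the next in the order, the smooth muscle-like cells in control and the melanocyte-like cells in Dox.

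Eif2ak2 was found in every cell type. In control it lay between 37.4 CPM in the Snhg7os-led cells and 16.8 CPM in smooth muscle-like cells, leaving out the Schwann-like cells with 1 UMI, and every neighbour in the order overlapped the next. RPE cells were at the lower end in control and in the middle of the order in Dox, beside the Myoc-led fibroblast-like cells at 28.0 CPM. In melanocyte-like cells it was at 29.3 CPM in control against 39.2 CPM in Dox, giving a log2 ratio of 0.42 (0.06 to 0.78), while the summed melanocyte markers were lower in Dox (39295 and 25593 CPM). A finer clustering held 834 control and 1229 Dox erythroid-like cells and 1170 and 718 melanocyte-like cells. In these 2 clusters Eif2ak2 had log2 ratios of 0.32 (-0.38 to 1.04) and 0.46 (0.01 to 0.90). In NK or T-like cells it was at 22.4 and 14.1 CPM, counted as lower on 45 and 18 UMIs, with a log2 ratio of -0.67 (-1.55 to 0.15).

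For Mavs and Tbk1, each cell type overlapped its neighbour in the order in both libraries. In control Mavs lay between 9.57 CPM in macrophage-like cells and 18.3 CPM in smooth muscle-like cells, apart from the Schwann-like cells with 5 UMIs, and the RPE level of 12.9 CPM was in the middle. Its order differs from that of Ifih1, whose lead in macrophage-like cells Mavs did not share. Tbk1 was at 26.0 CPM in macrophage-like cells, 23.3 CPM in the Snhg7os-led cells, 21.9 CPM in NK or T-like and 20.8 CPM in endothelial-like cells, and between 15.5 and 12.8 CPM in the other types with more than 4 UMIs, RPE cells being the lowest. In Dox the Cxcl10-led cells were lowest for Tbk1, at 11.8 CPM, and the Myoc-led fibroblast-like cells, at 12.5 CPM, were below the RPE cells with an overlapping interval.

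Zbp1 was highest in the immune cells. It was at 29.4 CPM in control against 30.5 CPM in Dox in NK or T-like cells, and at 27.1 and 35.4 CPM in macrophage-like cells, with a log2 ratio of 0.38 (0.01 to 0.76) in the latter. The Sfrp4-led fibroblast-like cells were at 16.8 and 14.04 CPM, on 13 and 7 UMIs, the Cxcl10-led cells at 9.48 and 7.19 CPM and the Myoc-led fibroblast-like cells at 4.13 and 4.16 CPM. RPE cells were at the bottom together with melanocyte-like and smooth muscle-like cells, with overlapping intervals. Cgas and Tmem173 were likewise higher outside the RPE, Tmem173 at 40.04 and 42.4 CPM in macrophage-like cells.

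The receptor chains had different orders. Ifnar1 was highest in macrophage-like cells at 61.5 CPM in control against 57.9 CPM in Dox and, among NK or T-like cells, at 58.3 and 70.5 CPM, which overlap each other, and RPE cells were lowest in both libraries, below smooth muscle-like cells at 17.2 and 14.3 CPM. In control the intervals of RPE and smooth muscle-like cells do not overlap, and in Dox they do. Ifnar2 was highest in Schwann-like cells, at 214 CPM in control against 254 CPM in Dox on 31 and 29 UMIs, overlapping the next in the order. It was at 175 CPM in macrophage-like, 167 CPM in Cxcl10-led, 160 CPM in melanocyte-like and 144 CPM in Myoc-led fibroblast-like cells of the control library, and at 112 CPM in NK or T-like cells. RPE cells, at 66.8 CPM, and smooth muscle-like cells, at 74.3 CPM, were lowest and overlap. In melanocyte-like cells Ifnar2 was lower in Dox, at 120 CPM, giving a log2 ratio of -0.42 (-0.60 to -0.24), as were the summed melanocyte markers given above. Under the finer clustering Ifnar2 had a log2 ratio of -0.26 (-0.48 to -0.05) in the melanocyte-like and -0.03 (-0.48 to 0.42) in the erythroid-like cells. The part of the cluster's mix in its Ifnar2 ratio was not tested. The Snhg7os-led and the Sfrp4-led fibroblast-like cells also had Ifnar2 ratios below 0, at -0.31 (-0.58 to -0.04) and -0.53 (-1.05 to -0.02).

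**Figure D2:**
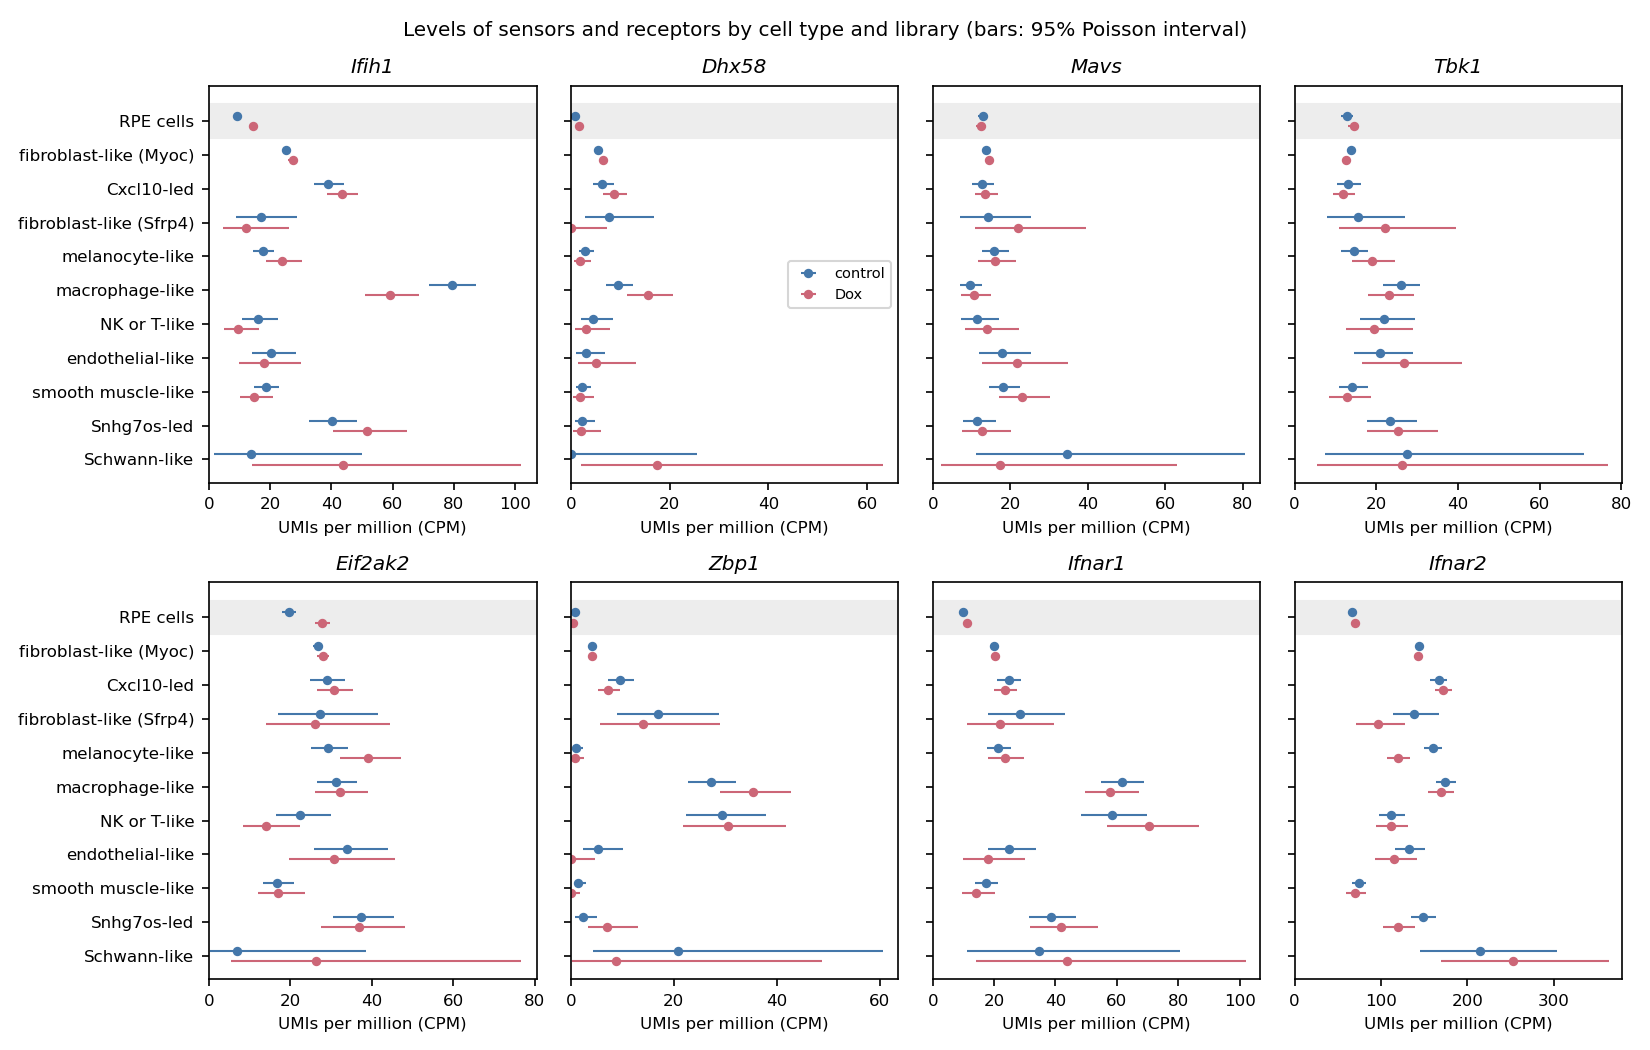
Level of each member in CPM, by cell type and library (control blue, Dox red), with bars for the 95% Poisson interval, and RPE cells shaded. Macrophage-like cells lead for Ifih1 at 79.3 and 59.2 CPM, Zbp1 is highest in macrophage-like and NK or T-like cells, and RPE cells are lowest for Ifnar1 at 9.73 and 11.2 CPM.

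RNA of other cell types was present in the RPE cells, and more of it in control. The 12 fibroblast markers summed to 1606 CPM in control RPE cells and 960 CPM in Dox RPE cells, which is 7.91% and 4.96% of their level in fibroblast-like cells, with Kera at 0. The 13 macrophage markers summed to 412 and 191 CPM, or 0.737% and 0.325% of the level in macrophage-like cells, all with UMIs. The 12 NK or T markers summed to 23.3 and 4.07 CPM, with Ncr1 at 0 in control and Trbc2 at 0 in Dox, and the endothelial, smooth muscle and Schwann markers were also lower in Dox RPE cells. Taking each type at the share its markers show, a calculation added after the data had been seen, gives the level that these cells alone would bring into the RPE counts. Melanocytes were left out of it, since the RPE itself transcribes pigment genes.

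By that calculation Zbp1 and Tmem173 in RPE cells were close to the estimate for carried-over RNA. For Zbp1 it came to 106% of the measured level in control and 80.5% in Dox, for Tmem173 to 106% and 110%, and for Cgas to 82.8% and 116%. The calculation carries no interval, and the part of carryover in the lower counts of these genes in Dox was not tested. For Dhx58 it was 69.7% in control and 32.0% in Dox, for Ifih1 34.6% and 14.007%, for Ifnar1 30.8% and 14.96% and for Ifnar2 26.3% and 14.6%. Mavs, Tbk1 and Eif2ak2 were least touched, at 15.3%, 15.8% and 14.97% in control and 9.17%, 7.52% and 6.95% in Dox. Since there was less of this RNA in Dox, subtracting it raised the ratios: Dhx58 to 2.20, Ifih1 to 1.05, Eif2ak2 to 0.64, Ifnar1 to 0.51 and Ifnar2 to 0.29 on the log2 scale, with Mavs at 0.05 and Tbk1 at 0.31. The levels left were not rescaled to the UMIs left after subtraction. More was taken from control, so all of these ratios are somewhat too high. Without the RPE cells of the highest doublet scores, Ifih1 had a log2 ratio of 0.81, Dhx58 of 1.10 and Eif2ak2 of 0.52.

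**Figure D3:**
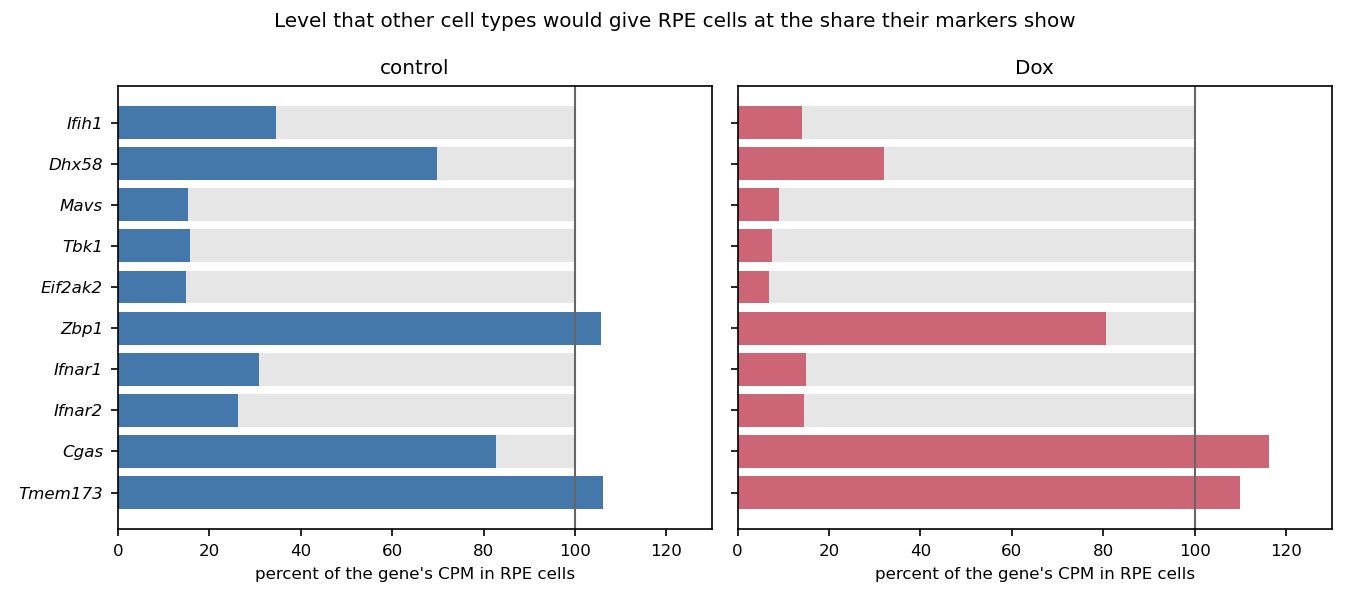
Coloured bars give the CPM that other named cell types, melanocytes left out, would bring into RPE cells at the share their markers show there. It is given as a percent of each gene's measured CPM in RPE cells (grey, 100) in control (left) and Dox (right). The bar reaches 106% for Zbp1 and Tmem173 in control and 116% for Cgas in Dox, whereas for Eif2ak2 it is 14.97% and 6.95%.

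The RPE cells were clustered again, with the members, the pathway genes below and the genes that the study compares kept out of the clustering, into 4 subclusters named here by a leading gene. The Cd74-led subcluster (Cd74, Enpp2, Sfrp5, Dapl1) held 921 control and 978 Dox cells, and the Mgp-led subcluster (Mgp, Dcn, Apod, Lum) 397 and 288. The Gm26917-led subcluster (Gm26917, Gm45159, Lncpint, Kcnq1ot1) held 123 and 188 cells, with only 3744 and 4882 UMIs per cell in the median, and the Serpina3n-led subcluster (Serpina3n, Gsta3, Gnb3, Timp1) 85 and 176, with 30320 and 31142.5. The leading genes of the Mgp-led cells are fibroblast genes: their fibroblast markers summed to 5644 and 5419 CPM, beside 207 and 99.9 CPM in the Cd74-led and 259 and 86.4 CPM in the Serpina3n-led cells, and their median doublet score was 0.437 and 0.407, the highest of the 4 in both libraries. The Serpina3n-led cells had doublet scores of 0.312 and 0.135, so these differed between the libraries, and the macrophage markers of the Cd74-led cells summed to 526 and 229 CPM. The part of either in the ratios was not tested.

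Ifih1 was higher in Dox in each subcluster by its point estimate, and most so in the Serpina3n-led cells. There it was at 6.01 CPM in control (3.36 to 9.92, 15 UMIs) against 16.7 CPM in Dox (13.5 to 20.4, 93 UMIs), giving a log2 ratio of 1.47 (0.68 to 2.36). In the Cd74-led cells, the bulk of the RPE, it was at 8.02 and 11.9 CPM, giving a log2 ratio of 0.57 (0.26 to 0.89), and in the Mgp-led cells at 13.0 and 19.1 CPM, giving a log2 ratio of 0.56 (0.13 to 0.997). The interval of the Gm26917-led cells, on 7 and 29 UMIs, includes 0, and the intervals of all 4 overlap. Fibroblast and macrophage markers were lower in Dox in both the Cd74-led and the Mgp-led cells, and their part in these ratios was not tested.

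Eif2ak2 had intervals that left out 0 in the Cd74-led and the Serpina3n-led cells. It was at 18.4 CPM in control against 26.5 CPM in Dox in the Cd74-led cells, giving a log2 ratio of 0.53 (0.32 to 0.74), and at 18.0 and 28.7 CPM in the Serpina3n-led cells, giving a log2 ratio of 0.67 (0.18 to 1.18). In the Mgp-led and Gm26917-led cells the ratios of 0.32 and 0.25 have intervals that include 0. Dhx58 had 0 UMIs in the control Serpina3n-led cells, which allows up to 3 UMIs in that library, or 1.20 CPM, and 14 in Dox, at 2.51 CPM (1.37 to 4.21). The lower limit of the log2 ratio there was 0.57. In the Cd74-led cells it had 8 and 22 UMIs, at 0.486 and 1.13 CPM, with a log2 ratio of 1.22 (-0.00 to 2.60).

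Of the receptor chains, Ifnar2 showed the clearest split between the subclusters, though its ratio stayed short of a 1.5-fold difference in each. Ifnar2 in the Serpina3n-led cells was at 72.9 CPM in control (62.7 to 84.3, 182 UMIs) against 107 CPM in Dox (98.7 to 116, 598 UMIs), giving a log2 ratio of 0.55 (0.31 to 0.80). In the Cd74-led cells it was at 59.9 and 57.3 CPM, giving a log2 ratio of -0.07 (-0.19 to 0.06), and in the Mgp-led cells at 82.5 and 85.9 CPM, giving a log2 ratio of 0.06 (-0.13 to 0.24). The interval in the Serpina3n-led cells lies above both of these, but not above that of the Gm26917-led cells, -0.23 (-0.86 to 0.42). Ifnar1 had a log2 ratio of 0.45 in the Serpina3n-led and 0.32 in the Cd74-led cells, and both intervals include 0. Mavs, by contrast, was at 14.4 CPM in control against 10.8 CPM in Dox in the Serpina3n-led cells, giving a log2 ratio of -0.42 (-1.04 to 0.21), and no subcluster had a Mavs or Tbk1 interval that left out 0. Zbp1 had 8 and 3 UMIs in the Cd74-led, 15 and 7 in the Mgp-led, 0 and 1 in the Gm26917-led and 0 and 4 in the Serpina3n-led cells. Its log2 ratio in the Mgp-led cells was -0.68 (-2.22 to 0.70), and the other subclusters had too few UMIs for one.

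**Figure D4:**
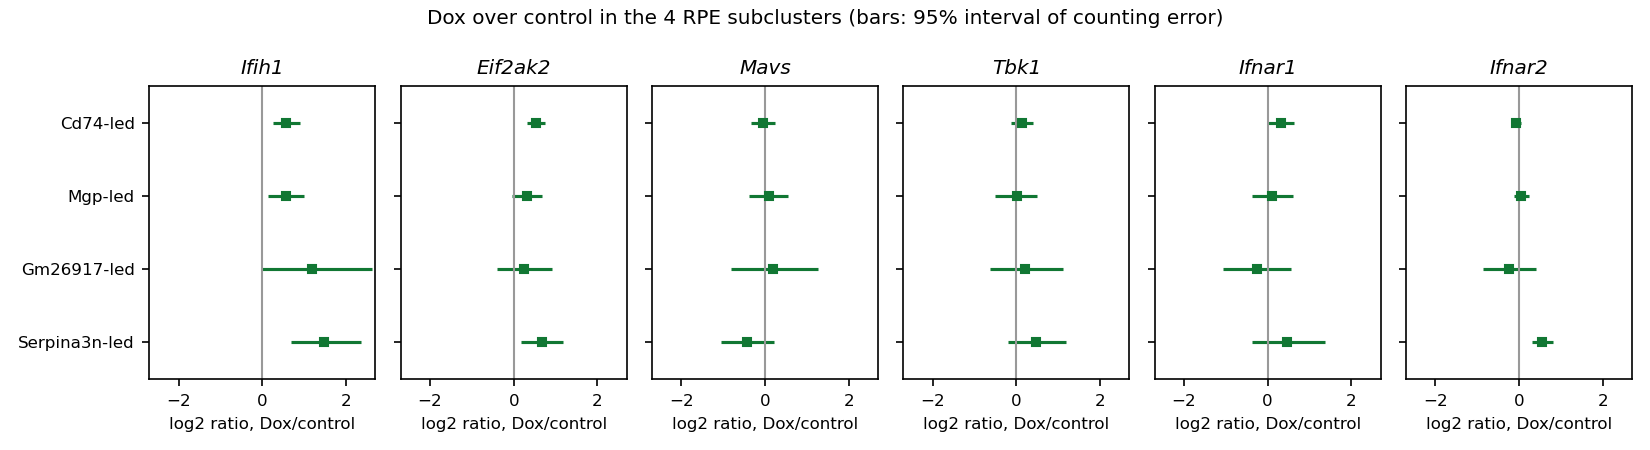
Log2 ratio of Dox over control in the 4 RPE subclusters for the 6 members with enough UMIs, with bars for the 95% interval of counting error. Ifih1 lies right of 0 in every row, up to 1.47 in the Serpina3n-led cells, and Ifnar2 does so in the Serpina3n-led cells alone among intervals that leave out 0, at 0.55.

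Other genes of the same pathway were described beside the members. They were taken as 7 lists written by function, with earlier results of these data known, and 118 of their genes were in the tables. In RPE cells 91 of them had at least 20 UMIs, and 19 were past 1.5-fold higher and 6 lower in Dox, where 2.93% and 7.44% of all genes were, with a median log2 ratio of 0.02. Outside the RPE it was 0 higher and 4 lower of 101, where 3.3% and 6.1% of all genes were, the lower ones being the sensors Tlr7, Tlr9 and Aim2 and the interferon gene Ifnb1. The interval of Tlr9, on 48 and 24 UMIs, includes 0. Macrophage markers outside the RPE summed to 3506 CPM in control and 2807 CPM in Dox. The part of the mix of cell types in these lower ratios was not tested.

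The RNA sensing list, with the relatives and partners of Ifih1, had 2 of 19 counted genes higher and 1 lower, and a median of -0.02, beside -0.02 over all genes. Ddx58, which encodes the sensor RIG-I, was at 16.8 CPM in control against 25.5 CPM in Dox, giving a log2 ratio of 0.60 (0.43 to 0.78), and Irf7, the interferon-induced regulator of interferon genes, at 8.59 and 24.0 CPM, giving a log2 ratio of 1.48 (1.27 to 1.70). Irf5 had 23 and 11 UMIs and a log2 ratio of -1.31 (-2.49 to -0.22). Irf3, the constitutive target of Tbk1, was at 29.6 and 29.8 CPM, and Rela, a subunit of NF-kB, at 30.4 and 29.97 CPM. The sensors Ifih1, Dhx58 and Ddx58 and the regulator Irf7 were thus higher in Dox, while Mavs, Tbk1 and Irf3, which link them, differed by less than their counting error.

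Of the DNA sensing and clearance list, 0 of 12 genes were higher and 3 lower, with a median of -0.19. The lower genes were Cgas and Tmem173, for which the carryover estimate was given above, and Enpp1, which degrades the messenger that Cgas makes. Enpp1 was at 4.26 and 2.69 CPM, giving a log2 ratio of -0.66 (-1.09 to -0.24), beside 46.1 and 44.7 CPM outside the RPE. The carryover calculation was not run for Enpp1, and the part of carryover in its ratio was not tested. Banf1 and Rnaseh2c, the members of the list with the most UMIs, were at 156 and 147 CPM and at 33.6 and 33.7 CPM. Among the partners of Zbp1 and Eif2ak2, 0 of 12 were higher and 1 lower, where 2.93% and 7.44% of all genes were. Eif2s1, the translation factor that Eif2ak2 phosphorylates, was at 33.0 and 34.2 CPM. Ppp1r15a, which reverses that step, was at 237 and 177 CPM, giving a log2 ratio of -0.42 (-0.48 to -0.37). Outside the RPE Ppp1r15a was at 2040 and 2057 CPM, and the part of carryover in its RPE ratio was not tested.

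Downstream of the receptor, 4 of 13 genes were higher and 0 lower, with a median of 0.02. Among them were Stat2 at 16.3 and 27.0 CPM (log2 ratio 0.73, 0.56 to 0.90), Irf9 at 16.99 and 30.3 CPM (0.83, 0.67 to 0.998), and Usp18, which binds Ifnar2 and restrains its signal, at 8.44 and 18.5 CPM (1.13, 0.90 to 1.36). Stat2 and Irf9 are parts of the factor that the receptor activates, and Usp18 is a feedback inhibitor. Socs3, another inhibitor of cytokine signalling, was at 112 and 82.8 CPM, giving a log2 ratio of -0.44 (-0.52 to -0.36). Outside the RPE Socs3 was at 1236.5 and 1255 CPM, and the part of carryover in its RPE ratio was not tested. The phosphatase Ptpn11 was at 76.8 and 75.8 CPM in RPE cells. Of the receptors for other interferons, none of 4 was past 1.5-fold in RPE cells. Ifngr1 was at 21.9 and 17.8 CPM and Il10rb at 22.0 and 15.3 CPM, with log2 ratios of -0.30 (-0.47 to -0.13) and -0.53 (-0.71 to -0.35). Ifngr2 was at 15.01 and 17.3 CPM, with a log2 ratio of 0.21 (0.02 to 0.40). Outside the RPE Ifngr1 had a log2 ratio of -0.05 (-0.09 to -0.00), Ifngr2 of -0.11 (-0.18 to -0.04) and Il10rb of -0.55 (-0.61 to -0.49), the last close to its value in RPE cells.

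Of the interferon-induced list, 13 of 31 counted genes were higher and 1 lower, with a median log2 ratio of 0.55 and summed levels of 904 CPM in control against 1522 CPM in Dox. The largest ratios were those of Ifi44 (2.18, 1.08 to 3.48, on 8 and 43 UMIs), Gbp3 (1.58, 1.44 to 1.73), Ifit3 (1.38, 1.30 to 1.46), Rtp4 (1.22, 1.06 to 1.39) and Ifit3b (1.21, 1.08 to 1.35). Bst2, which tethers budding virus, had the most UMIs of those counted as higher, at 233 and 473 CPM (1.02, 0.98 to 1.07), followed by Lgals3bp at 152 and 277 CPM (0.87, 0.82 to 0.93). Irgm1, Xaf1, Herc6, Ifit1 and Trim30a had log2 ratios of 1.06, 0.97, 0.87, 0.86 and 0.84. Oasl2 had one of 0.59, and the carryover calculation gives 111% of its level in control and 55.3% in Dox. Cxcl10, a chemokine, was the lower gene, at 46.1 and 27.7 CPM (-0.74, -0.86 to -0.61), beside 533 and 617 CPM outside the RPE. The carryover calculation gives 44.4% and 38.5% of its RPE level, without the Cxcl10-led cells among the sources. The part of carryover in the Cxcl10 ratio was not tested. Irf1 and Ifi27l2a, with the most UMIs of the rest, were at 102 and 82.2 CPM and at 47.9 and 55.0 CPM. Of these levels the carryover calculation gives 121% and 88.0% for Irf1 and 102% and 53.5% for Ifi27l2a. Outside the RPE 0 of 35 were past 1.5-fold, and the median was 0.05. Within the RPE the Serpina3n-led cells stood out, with 23 of 30 higher, 1 lower, a median of 1.53 and sums of 693 and 2444 CPM, where 8.83% of 10242 genes were counted as higher and 8.23% as lower.

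**Figure D5:**
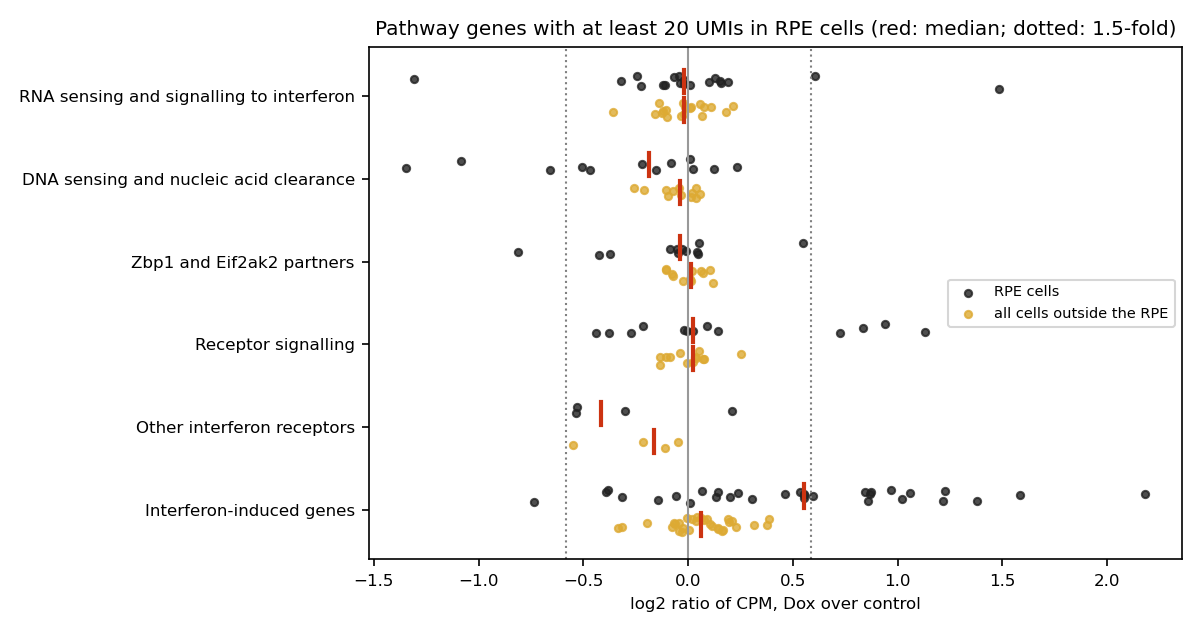
Log2 ratio of Dox over control for each pathway gene with at least 20 UMIs in RPE cells, by list, in RPE cells (black) and in all cells outside the RPE (yellow), with a red line at each median and dotted lines at a 1.5-fold difference. In RPE cells the interferon-induced genes have a median of 0.55 and 4 receptor signalling genes lie past 1.5-fold, whereas the yellow points of every list stay within the dotted lines.

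The ligands themselves were scarce. None of the 19 interferon genes of the list reached 20 UMIs in RPE cells, and Ifnb1, which encodes interferon-beta, had 0 UMIs there in both libraries. That allows Ifnb1 UMIs in up to 0.197% of the 1526 control and 0.184% of the 1630 Dox RPE cells. Macrophage-like cells held most of the Ifnb1 UMIs, 119 in 31 of 955 control cells, at 23.2 CPM (19.3 to 27.8), and 25 in 10 of 568 Dox cells, at 8.27 CPM (5.35 to 12.2). The level was thus lower in the Dox library, with a log2 ratio of -1.49 on UMIs that came from few cells. Ifng, the type II interferon, was found chiefly in NK or T-like cells, with 158 and 75 UMIs at 78.7 and 58.7 CPM.

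The genes whose level over the 24 groups of cell type and library was most like that of each member were taken from 11113 genes, by Pearson's r of log2(CPM + 1), as a description of groups that share a library and differ in depth. For Ifih1 they were Slc7a11 (0.89), Ppp1r21 (0.77) and Maf (0.75), for Dhx58 Ogfrl1 (0.81), Syce2 (0.76) and Plcb2 (0.76), and for Eif2ak2 Gpalpp1 (0.80), Polb (0.79) and Hltf (0.79). For Zbp1 they were Mthfd2 (0.88), Adcy7 (0.87) and Gsap (0.85), for Mavs Med31 (0.85), Fbxo22 (0.84) and Ubqln4 (0.84), and for Tbk1 Itsn2 (0.74), Stat5a (0.74) and Trim30a (0.73). Ifnar1 was most like Pik3cd (0.93), Gsap (0.90) and Zc3hav1 (0.89), and Ifnar2 most like Cmpk2 (0.86), Ifit2 (0.85) and Fscn1 (0.84). Of these, Trim30a, Cmpk2 and Ifit2 are interferon-induced genes of the lists above. Every group weighs the same whatever its UMIs, and the highest Dhx58 level among them, 17.5 CPM in Dox Schwann-like cells, rests on 2 UMIs.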

How the data were processed

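Single-cell RNA was read from the 5′ end in 1 control and 1 Dox library. The authors aligned it to mm10 with Cell Ranger, version 4.0.0 by the file header, and deposited raw counts, whole numbers of UMIs per gene and cell, for 20381 control and 15649 Dox barcodes. The filter kept cells of more than 500 UMIs and 200 to 6000 genes in which mitochondrial genes took less than 0.2 of the UMIs and the ratio of log10 genes to log10 UMIs exceeded 0.8. Both libraries were integrated with Seurat 5.3.0 (sctransform 0.4.2, R 4.3.3) on 3000 features and clustered with 40 components at a resolution of 0.1. Clusters were named when at least 3 markers of a type were at 10 CPM and one was among the 10 leading genes. RPE cells were those with at least 10 Rpe65 UMIs, and were subclustered on 2807 features.

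UMIs were summed per group in Python 3.11.15 with pandas 2.3.3, scipy 1.17.1 and numpy 2.4.6. Levels have exact Poisson and ratios exact conditional binomial intervals at 95%, all of counting error only. With 1 library a group no test was made, and called means past 1.5-fold with at least 20 UMIs over both libraries. The members and the gene lists were chosen with earlier results of these data known. The genes named are the members, Cgas and Tmem173, the pathway genes past 1.5-fold whose interval leaves out 0 (the 20 with the largest ratios, and Stat2, Enpp1, Ddx58 and Oasl2, added after their values were seen), 2 further genes per list with the most UMIs, the leading genes of clusters and the 3 genes most like each member. Ifnb1, Ifngr2, Tlr7, Tlr9 and Aim2 were named after their values were seen. Mx1 and Mx2 were not analysed here. Some genes that the rule names are not reported here. On simulated Poisson counts for 14215 genes of the RPE comparison, the true ratio lay inside the interval for 96.0% of changed and 95.9% of unchanged genes. The intervals are exact for such counts, so this checks the calculation only. Clumping of UMIs in cells and spread between libraries were not simulated.

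Scrublet (scanpy 1.11.5) gave each cell a doublet score, and no doublet was removed. At the expected rates of 16.3% and 12.5%, 366 control and 199 Dox RPE cells had scores above the limit, and leaving them out was an alternative. The other alternatives were other limits on Rpe65, mitochondrial share, UMIs and fold, no filter on cells, other ways to scale, clustering at a resolution of 0.2, and thinning each cell to 2000 UMIs.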

Additional observations from a re-analysis of the deposited data

Results flagged for a closer look

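Ifih1 stood out at the clustering resolution of 0.1 because its ratio between the libraries took different directions in different cell types. The log2 ratio of Dox over control was 0.66 in RPE cells, 0.11 in the Myoc-led fibroblast-like cells and -0.42 in macrophage-like cells. Each interval of counting error leaves out 0, but with 1 library a group the difference between cell types was not tested. Under a finer clustering the Ifih1 ratio was -0.43 in C1qb-led macrophage-like cells. It was 0.21, with an interval that includes 0, in the cells led by an antibody gene.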

How the results depend on the processing

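No paired analysis was possible because each group is 1 library. In RPE cells 2 members were counted as higher and 1, Zbp1, as lower, and 19 and 6 of the pathway genes. With at least 3 Rpe65 UMIs the members were 1 higher and 0 lower and 12 pathway genes were higher, and Zbp1 reversed to a log2 ratio of 0.017. The count of lower members was 0 with all cells of the RPE-like cluster, with only RPE cells inside it, without the highest doublet scores, with at least 50 UMIs, with carryover subtracted and where the interval had to leave out 1. The mean of the cells' own CPM left 1 member higher, thinning to 2000 UMIs left 0 higher and 0 lower, and a 2-fold limit 1 and 0. Among pathway genes thinning gave 3 lower, at least 50 UMIs 3, no minimum 10, a 2-fold limit 9 higher and 3 lower, and subtracting carryover, chosen after seeing the data, 31 higher and 1 lower. The subtraction was not rescaled and moves the ratios of all genes upward. Shares over all genes under these settings are not given, so these counts show only how the calls move, not a result about the lists. Over these settings Ifih1 ranged from 0.42 to 1.05, Dhx58 from 0.69 to 2.50, Eif2ak2 from 0.13 to 0.64 and Zbp1 from -1.67 to 0.02 on the log2 scale. Mavs ranged from -0.09 to 0.08, Tbk1 from 0.11 to 0.38, Ifnar1 from -0.05 to 0.51 and Ifnar2 from -0.07 to 0.29. The ranges of Tbk1, Ifnar1 and Ifnar2 thus overlap that of Eif2ak2. The upper ends for Ifih1, Eif2ak2, Ifnar1 and Ifnar2 came from subtracting carryover without rescaling, and are somewhat too high. Apart from the counts, 83 member ratios in RPE cells moved by less than their interval, 11 moved by more and 1 reversed. The causes were not tested. Subclusters without a filter on cells were not run, since barcodes outside the filter were not clustered. Depth limits Zbp1, Dhx58, Cgas and Tmem173 most.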
